A study of Rattus norvegicus with 24 samples.

Results

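AMPA and kainate receptors are the ligand-gated channels that carry most fast excitatory transmission in the hippocampus. Probe sets for their 9 subunit genes were followed in rat hippocampus after an ischemia operation. They are the AMPA subunit genes Gria1, Gria2, Gria3 and Gria4, and the kainate subunit genes Grik1, Grik2, Grik3, Grik4 and Grik5. Members were all probe sets annotated to exactly 1 of these genes, which gave 16 of the 8799 probe sets on the array, 10 for AMPA and 6 for kainate subunits. All 9 genes, of 4737 named by the annotation, had at least 1 probe set.

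Total RNA from hippocampus was measured on 24 Affymetrix rat genome arrays, 2 for each of 12 groups. The SHAM arm is described in the labels as hypoxia sensitive and the TOL arm as hypoxia tolerant, and the labels place both arms after an ischemia operation. Each arm was sampled at 0, 1, 3, 12, 24 and 48 h after it, in a first and a second experiment. The sources used here give neither strain, sex nor age, nor the kind of ischemia, nor how tolerance was brought about. The labels do not say whether the 2 arrays of a group stem from different rats, and the p-values therefore reflect the spread between arrays alone, which may be technical.

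AMPA receptors are tetramers of the proteins GluA1 to GluA4. The GluA2 subunit, from Gria2, keeps calcium out of the channel after RNA editing of its pore, and receptors without it let calcium through. Lower Gria2 mRNA in the vulnerable CA1 neurons after global ischemia is known from earlier work in rats and gerbils. Kainate receptors are built from the low-affinity subunits GluK1 to GluK3 (Grik1 to Grik3) and the high-affinity subunits GluK4 and GluK5 (Grik4 and Grik5). In the hippocampus they are best known at the mossy fibre synapses of CA3.

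A level below is the quantile-normalised intensity of 1 probe set on 1 array, in arbitrary units. It can be compared across arrays but not between probe sets. A range such as 376 to 493 units at 1 time gives the readings of the 2 arrays of a group. The noise level, 41.2 units, is the 99th percentile of values over 1957 probe sets with an average of 0 or less. Testing needed both arrays of at least 1 group above a floor of 3.49 units. A call means a limma adjusted p under 0.05 over all 7092 tested probe sets. Of the 16 members, 13 passed that filter, 9 for AMPA and 4 for kainate subunits. The 3 that did not were S94371_g_at for Gria4, X59996mRNA_s_at for Grik4 and AF027331_at for Grik3, and all 3 lay below the noise level on all 24 arrays. The Grik3 probe set, the only 1 for that gene, read at or below 0 on 23 of 24 arrays, so nothing can be said of Grik3. The labelled tissue was checked against cell markers, a check that brain tissue outside the hippocampus could also pass. Of the list of neuronal markers 11 of 11 tested genes, of excitatory neuron markers 6 of 6, and of astrocyte markers 8 of 8 had a mean above the noise level. The excitatory marker Slc17a7 was on the array but did not pass the filter. Summed choroid plexus and ependyma markers varied between arrays, with 374 and 4435 units in SHAM at 12 h and 5450 and 4824 at 3 h.

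The arrays were hybridised on 2 days, and the days nearly coincide with the arms. Day 1 held 11 SHAM arrays and TOL 0 h replicate 1, and day 2 held 11 TOL arrays and SHAM 48 h replicate 2. The fluidics records of the 4 TOL arrays at 24 and 48 h were logged as aborted. Values within a day, or with the day as a block, are given beside the members' calls in TOL.

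Gria1, Gria2 and Gria3 fell in both arms, and Gria4 and the kainate subunit genes were not called in either. Over the time course, 7 of 13 members changed in SHAM by limma's moderated F test, against 15.7% of all tested probe sets. In TOL 6 of 13 changed, against 11.7%. The 7 are all the probe sets of Gria1 (3), Gria2 (2) and Gria3 (2), and the 6 in TOL are the same without M36419_s_at of Gria2, which missed the threshold of 0.05 (adjusted p = 0.0506). None of the 13 had a called difference between the time courses of the arms, against 0.353% of all (25 probe sets). The lowest adjusted p was 0.057, for X17184_at of Gria1. With the day as a block 7 of 13 members were called in SHAM, against 12.1% of all, and 5 in TOL, against 10.2%. Within day 2 the TOL calls were lost, but the 0 h group then has 1 array, and fewer of all probe sets were called too. The day and lower power cannot be told apart there. Within day 1, 6 of 13 were called in SHAM, against 7.23% of all.

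By single times, no member was called lower at 1 or 3 h in either arm. The shares of all probe sets called lower then were 0.0846% and 0.635% in SHAM and 0.338% and 0.282% in TOL. At 12 h 1 member was lower in SHAM (background 2.74%) and 1 in TOL (1.96%). At 24 h 7 were lower in SHAM (4.10%) and 5 in TOL (3.07%). At 48 h 6 were lower in SHAM (6.23%) and 7 in TOL (3.31%). No member was called higher at any time. The median log2 difference of the 13 members from 0 h was 0.07, -0.08, -0.47, -0.81 and -0.88 in SHAM at 1, 3, 12, 24 and 48 h. In TOL it was -0.23, -0.50, -0.50, -0.96 and -0.95, while the medians of all tested probe sets lay between -0.04 and 0.00. With both arms averaged, which uses 4 arrays a time, 0, 1, 6, 7 and 7 members were lower at these times, against 0.536%, 1.59%, 5.57%, 8.23% and 10.2% of all probe sets. With the day as a block 0, 0, 5, 7 and 6 members were called in either direction, against 1.62%, 2.65%, 9.02%, 14.3% and 10.8% of all probe sets.

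Single arrays decided some of these counts. Without SHAM 0 h replicate 1 the SHAM counts were 4 at 24 h and 3 at 48 h, and without SHAM 24 h replicate 2 the 24 h count was 4. Without TOL 0 h replicate 1, the TOL array of day 1, the TOL counts were 1 at 24 h and 2 at 48 h. They were 1 at 24 h without TOL 24 h replicate 1, and 2 at 48 h without TOL 48 h replicate 1. Over both arms the counts ranged from 7 to 8 at 24 h and from 7 to 9 at 48 h when any 1 of the 24 arrays was left out.

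**Figure D1:**
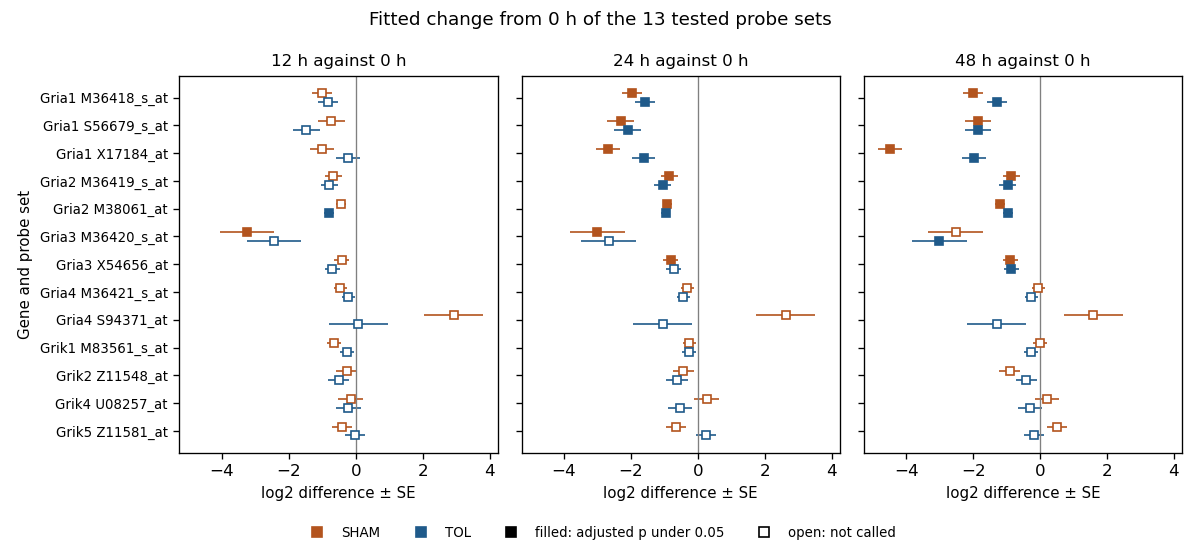
Fitted log2 difference from 0 h (x axis, ± SE) of the 13 tested probe sets (y axis) at 12, 24 and 48 h, in SHAM and TOL, with filled squares for calls. The Gria1, Gria2 and Gria3 probe sets lie left of 0 at 24 and 48 h in both arms, with 7 and 6 calls in SHAM and 5 and 7 in TOL.

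Gria1 encodes GluA1, the subunit inserted into synapses during long-term potentiation, and lies on chromosome 10. Its brightest probe set, M36418_s_at, read 376 to 493 units on the SHAM arrays at 0 h, 383 to 415 at 1 h and 311 to 363 at 3 h. It then read 205 to 225 units at 12 h, 88.9 to 135 at 24 h and 87 to 133 at 48 h. In SHAM the level was thus high up to 3 h, intermediate at 12 h and low on all arrays from 24 h on, with no overlap between these 3 stages. Both arrays lay below both at 0 h for 27.7%, 27.5% and 32.2% of all tested probe sets at 12, 24 and 48 h. The share with such stages was not counted. The difference from 0 h was -1.97 ± 0.30 (SE) on the log2 scale at 24 h (adjusted p = 0.00105) and -2.00 ± 0.30 at 48 h (adjusted p = 0.00102). At 48 h the mean was 25.3% of its 0 h level.

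In TOL, M36418_s_at read 227 to 368 units at 0 h, 230 to 238 at 1 h, 168 to 243 at 3 h and 148 to 176 at 12 h. It read 79.3 to 117 units at 24 h and 104 to 136 at 48 h. The TOL 0 h arrays lay far apart, and the higher of the pair was the 1 hybridised on day 1. All later TOL arrays but 3 of those at 1 and 3 h lay below both 0 h arrays. At 12, 24 and 48 h both arrays lay so for 24.4%, 30.6% and 26.9% of all tested probe sets. The difference was -1.59 ± 0.30 at 24 h (adjusted p = 0.00669) and -1.28 ± 0.30 at 48 h (adjusted p = 0.0203). With the day as a block it was -1.56 ± 0.35 and -1.26 ± 0.35 (adjusted p = 0.026 and 0.0602). Against the day 2 array alone it was -1.24 ± 0.33 and -0.93 ± 0.33, not called. In the order of the 12 group means, 8 of the 11 neighbouring pairs overlapped. The 3 gaps lay between SHAM 1 h and SHAM 3 h, between TOL 1 h and SHAM 12 h, and between TOL 12 h and TOL 48 h.

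The other probe sets of Gria1 were also lowest at 24 or 48 h in both arms. S56679_s_at stood at 187 ± 20.6 units (SD, n = 2) in SHAM at 0 h, 115 ± 34.1 at 12 h and 37.8 ± 5.89 at 24 h. The SHAM arrays at 48 h differed, at 31 and 86 units, and the higher was hybridised on day 2. In TOL it went from 159 ± 39.2 units at 0 h to 56.3 ± 0.44 at 12 h, 37.5 ± 11.6 at 24 h and 43.6 ± 6.54 at 48 h. The log2 differences at 24 and 48 h were -2.31 ± 0.40 and -1.85 ± 0.40 in SHAM (adjusted p = 0.0026 and 0.00987) and -2.10 ± 0.40 and -1.85 ± 0.40 in TOL (adjusted p = 0.00679 and 0.0134). With the day as a block the TOL values were -2.34 and -2.09 (adjusted p = 0.0103 and 0.0171). Within day 2 they were -1.84 and -1.60, not called. The SHAM 48 h value was -2.58 within day 1, and -1.12 and not called without SHAM 48 h replicate 1. The dimmest, X17184_at, was at 84 ± 4.25 units in SHAM at 0 h and below the noise level on both arrays at 24 and 48 h, at least 2.04-fold lower (adjusted p = 0.000389 and 4.73e-06). In TOL it was at 32 to 66 units at 0 h and below the noise level on all later arrays, at least 1.18-fold lower at 24 and 48 h (adjusted p = 0.0152 and 0.0049). The day 2 array of TOL 0 h, at 31.5 units, lay itself below the noise level, so this bound rests on the day 1 array. With the day as a block the 24 h call was lost (adjusted p = 0.0646), and within day 2 and under a floor of 36.9 units, the 40th percentile, both were lost (within day 2, adjusted p = 0.267 and 0.18).

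Gria2 encodes GluA2 and lies on chromosome 2. Its brighter probe set, M38061_at, read 929 to 1034 units in SHAM at 0 h, 970 to 1094 at 1 h and 914 to 941 at 3 h. It read 715 to 725 units at 12 h, 500 to 545 at 24 h and 413 to 444 at 48 h. Each SHAM time from 12 h on lay below every array of the time before it. Both arrays lay below both at 0 h for 27.7%, 27.5% and 32.2% of all tested probe sets at 12, 24 and 48 h. The share falling at each of these steps was not counted. The log2 difference from 0 h was -0.91 ± 0.14 at 24 h (adjusted p = 0.00123) and -1.19 ± 0.14 at 48 h (adjusted p = 0.000169), which left 43.7% of the 0 h mean.

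In TOL, M38061_at read 859 to 1091 units at 0 h, 653 to 762 at 1 h, 660 to 805 at 3 h and 538 to 575 at 12 h. It read 490 to 504 units at 24 h and 468 to 534 at 48 h. All TOL arrays after 0 h lay below both 0 h arrays, which at single times held for 21.6% to 30.6% of all tested probe sets. The difference was called at 12 h (-0.80 ± 0.14, adjusted p = 0.006), 24 h (-0.96 ± 0.14, adjusted p = 0.00115) and 48 h (-0.95 ± 0.14, adjusted p = 0.00138), and the 48 h mean was 51.4% of that at 0 h. With the day as a block these calls held, at -0.74, -0.90 and -0.89 (adjusted p = 0.0304, 0.00762 and 0.00748). Within day 2, where TOL 0 h has 1 array, the values were smaller, at -0.63, -0.79 and -0.78, and were not called. At 1 and 3 h the TOL arrays stood between 653 and 805 units and the SHAM arrays between 914 and 1094. These ranges do not overlap, but no TOL minus SHAM difference at a single time was called for any member. The share of all probe sets with such a gap between the arms was not counted. The TOL arrays at 1 and 3 h were all hybridised on day 2 and the SHAM arrays on day 1, so arm and day cannot be told apart. In the order of the 12 group means of M38061_at, 8 of the 11 neighbouring pairs overlapped. The gaps lay between SHAM 3 h and TOL 3 h, between TOL 1 h and TOL 12 h, and between TOL 24 h and SHAM 48 h.

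The second probe set of Gria2, M36419_s_at, was lowest at 24 and 48 h in both arms. In SHAM it was at 434 ± 21.6 units at 0 h, 470 ± 91.4 at 1 h and 526 ± 13.4 at 3 h, then 271 ± 15.4 at 12 h, 240 ± 42.4 at 24 h and 241 ± 45.3 at 48 h. In TOL it was at 455 ± 136 units at 0 h, 378 ± 16.8 at 1 h, 314 ± 86.9 at 3 h, 258 ± 36.2 at 12 h, 216 ± 32.3 at 24 h and 231 ± 50.7 at 48 h. The log2 differences were -0.86 ± 0.25 at both late times in SHAM (adjusted p = 0.0493 and 0.0402) and -1.05 ± 0.25 and -0.96 ± 0.25 in TOL (adjusted p = 0.0249 and 0.0347). With the day as a block none of these 4 was called (adjusted p = 0.0594 and 0.118 in SHAM, 0.0795 and 0.103 in TOL). Within day 1 both SHAM values were called (adjusted p = 0.045 and 0.0473), and within day 2 the TOL values, -0.74 and -0.65, were not (adjusted p = 0.305 and 0.358). The SHAM 24 h call lay at the threshold and was lost in 22 of 32 alternative settings, with values from -1.04 to -0.68.

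Gria3 encodes GluA3, which pairs with GluA2 in many pyramidal cell receptors, and lies on chromosome X. X54656_at read 125 to 167 units in SHAM at 0 h, 206 to 221 at 1 h, 170 to 189 at 3 h and 98 to 119 at 12 h. It read 80 to 85 units at 24 h and 66 to 93 at 48 h. Both SHAM arrays at 1 h lay above both at 0 h, a difference that was not called. All SHAM arrays from 12 h on lay below both at 0 h, as for 27.7%, 27.5% and 32.2% of all tested probe sets at 12, 24 and 48 h. The log2 difference was -0.81 ± 0.22 at 24 h and -0.88 ± 0.22 at 48 h (adjusted p = 0.0325 and 0.0193). In TOL the readings were 123 to 131 units at 0 h, 134 to 155 at 1 h, 89 to 136 at 3 h and 76 to 81 at 12 h. They were 67 to 88 units at 24 h and 69 to 72 at 48 h, and the 48 h difference was called (-0.86 ± 0.22, adjusted p = 0.0304) but not within day 2 (-0.91, adjusted p = 0.195). With the day as a block the 48 h values were -0.78 in SHAM and -0.75 in TOL (adjusted p = 0.0748 and 0.105).

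The other probe set of Gria3, M36420_s_at, was above the noise level only early. It read 68 to 75 units in SHAM and 40 to 99 in TOL at 0 h, and lay below the noise level on every array of both arms from 12 h on. The level was at least 1.74-fold lower in SHAM at 12 and 24 h (adjusted p = 0.0343 and 0.035) and at least 1.69-fold lower in TOL at 48 h (adjusted p = 0.041), where the call was lost within day 2 and with the day as a block (adjusted p = 0.222 and 0.151). In SHAM both calls held with the day as a block (adjusted p = 0.0215 and 0.0231) but were lost within day 1. The day 2 array of TOL 0 h, at 40.4 units, lay itself below the noise level. The fitted differences of M36420_s_at, near -3, rest on values under the noise level. Under a higher floor of 36.9 units, the 40th percentile, they shrank to -0.96 in SHAM and -0.78 in TOL, not called.

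**Figure D2:**
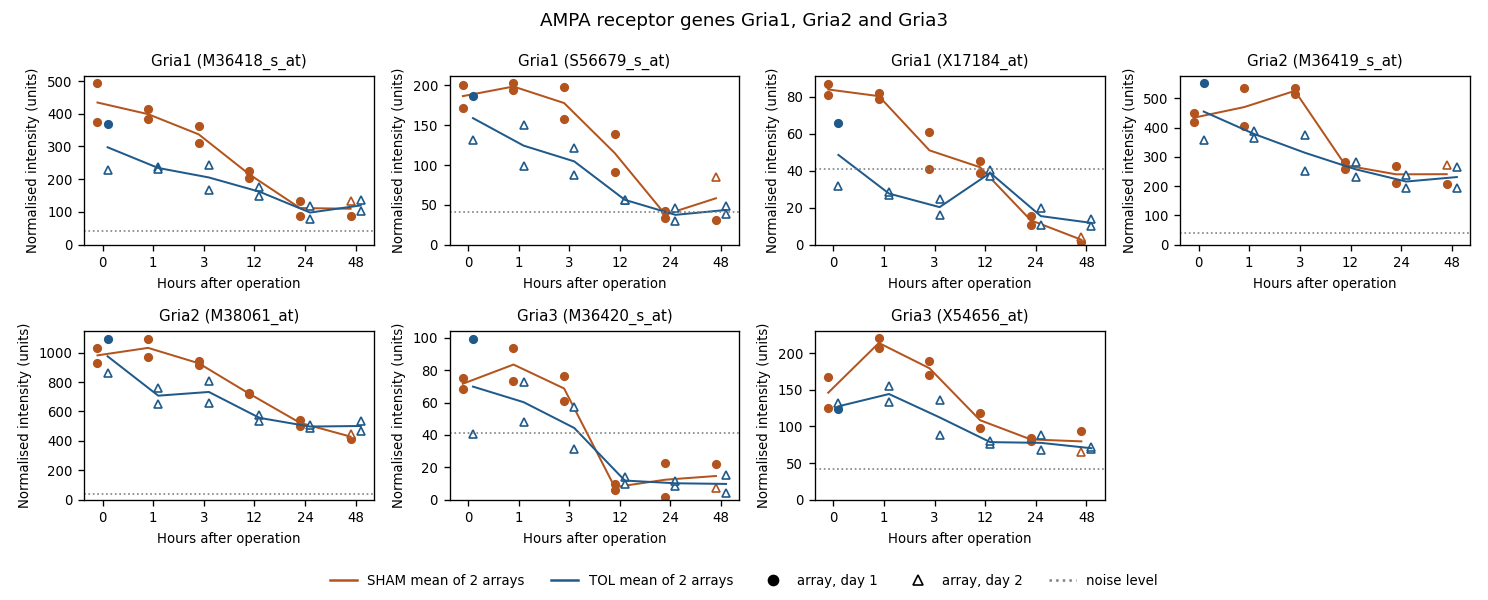
Normalised intensity (y axis, units) of the 7 probe sets of Gria1, Gria2 and Gria3 against hours after the operation (x axis, evenly spaced times), with points for arrays, shape for hybridisation day, lines for means of 2 arrays and a dotted line at the noise level of 41.2 units. M38061_at of Gria2 goes from 929 to 1034 units at 0 h to 413 to 444 units at 48 h in SHAM.

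The sizes of the falls were compared within arrays as the log2 ratio of the Gria1 to the Gria2 signal, a test chosen after the values were seen. From 0 h to 24 h this ratio changed by -0.85 over both arms, and all 4 arrays at 24 h lay below all 4 at 0 h (exact permutation p = 0.0286, two-sided, the smallest that 4 against 4 arrays allow). At 48 h the change was -0.57, with 3 of 4 arrays below (exact permutation p = 0.0571). Neither passed after adjustment over the 4 ratios tested (0.114 for both). The Gria3 to Gria2 ratio changed by 0.16 and 0.20 at these times (exact permutation p = 0.257 and 0.486).

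Promoter sequences (250 bases before to 50 after the gene start, RefSeq, build GRCr8) were held for 6 of the 9 genes: Gria4, Grik1, Grik2, Grik3, Grik4 and Grik5. Those of Gria4, the AMPA gene with no called change, and Grik5, the kainate gene with the brightest signal, are shown 5′ to 3′ on the gene's strand, the minus strand for both. Capitals mark matches, on either strand, to the GC box GGGCGG, the E box CAGCTG or the cAMP response element TGACGTCA. The first lies at chr8:10319832-10320131 and the second at chr1:89794860-89795159.
Gria4: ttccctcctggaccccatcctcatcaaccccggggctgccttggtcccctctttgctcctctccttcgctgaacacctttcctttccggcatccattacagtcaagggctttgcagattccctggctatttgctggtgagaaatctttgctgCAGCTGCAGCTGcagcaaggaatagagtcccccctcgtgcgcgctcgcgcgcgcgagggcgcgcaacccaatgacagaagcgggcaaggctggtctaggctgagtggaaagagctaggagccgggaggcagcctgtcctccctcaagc
Grik5: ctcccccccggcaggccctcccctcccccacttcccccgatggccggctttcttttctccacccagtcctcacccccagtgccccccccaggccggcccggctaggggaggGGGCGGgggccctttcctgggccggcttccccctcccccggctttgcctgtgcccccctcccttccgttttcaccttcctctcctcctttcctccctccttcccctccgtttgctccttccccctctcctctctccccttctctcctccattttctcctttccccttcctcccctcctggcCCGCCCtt
The Gria4 window holds 2 E boxes side by side and no GC box, and the Grik5 window holds 2 GC boxes and no E box. Of all 33469 rat promoters of this length 15.1% hold the E box, 33.1% the GC box and 1.83% the cAMP response element, which neither window holds.

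Gria4 encodes GluA4, an AMPA subunit prominent in interneurons and glial precursors in the adult hippocampus, and lies on chromosome 8. M36421_s_at read between 42.1 and 74 units on all 24 arrays, just above the noise level, and no contrast was called. A different probe set, S94371_at, did not follow it. It read 13.7 to 14 units in SHAM at 0 h, 27 to 94 at 1 h, 82 to 143 at 3 h, 100 to 111 at 12 h, 73 to 100 at 24 h and 22 to 81 at 48 h. In TOL, 11 of 12 arrays read between 8.56 and 35.7 units, and TOL 12 h replicate 1 read 99.3. The SHAM course did not pass the F test (adjusted p = 0.134), and the Gria4 probe sets disagree, since S94371_g_at, drawn from the same sequence record, stayed below the noise level throughout.

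Among the kainate subunit genes, Grik5 (GluK5, chromosome 1) was the only 1 with a called mean difference between the arms. Z11581_at read 348 to 361 units in SHAM at 0 h, 254 to 271 at 1 h, 245 to 247 at 3 h, 255 to 274 at 12 h, 200 to 250 at 24 h and 432 to 593 at 48 h. In TOL it read 277 to 699 units at 0 h, 611 to 662 at 1 h, 631 to 681 at 3 h, 396 to 475 at 12 h, 515 to 530 at 24 h and 349 to 427 at 48 h. The 12 arrays of day 1 lay between 200 and 432 units and the 12 of day 2 between 349 and 699, so the days overlapped. In both groups split over the days the day 2 array was higher, 699 against 277 units at TOL 0 h and 593 against 432 at SHAM 48 h. The mean difference TOL minus SHAM was 0.76 ± 0.12 (adjusted p = 0.00573), and 0.01 ± 0.17 with the day as a block (adjusted p = 0.998). In that fit the difference day 2 minus day 1 was 0.90 ± 0.18, which was not called (adjusted p = 0.278). Arm and day cannot be told apart for most groups. Neither time course passed the F test (adjusted p = 0.078 in SHAM and 0.305 in TOL). The SHAM difference at 24 h, -0.66, was not called without the block (adjusted p = 0.203) and was called with it (adjusted p = 0.0423) and within day 1 (adjusted p = 0.0375).

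The remaining kainate genes gave low or level signals. U08257_at of Grik4 (GluK4, chromosome 8) read between 111 and 235 units on all arrays, with 123 to 213 units at 0 h and 178 to 194 at 48 h in SHAM, and 158 to 235 at 0 h and 126 to 195 at 48 h in TOL. In the order of its group means 10 of 11 neighbouring pairs overlapped. Z11548_at of Grik2 (GluK2, chromosome 20) was close to the noise level. It went from 55 to 89 units at 0 h to 36 to 39 at 48 h in SHAM, and in TOL read 56 to 81 at 0 h, 38 to 50 at 1 h, 22 to 45 at 3 h and 49 to 52 at 48 h. Neither course passed the F test (adjusted p = 0.195 and 0.228). M83561_s_at of Grik1 (GluK1, chromosome 11) stayed between 31.7 and 62.4 units, with its lowest SHAM readings, 32 and 38, at 12 h (adjusted p = 0.158). On simulated data for SHAM at 48 h, with 200 of 7092 probe sets changed, 44% of falls of 1 on the log2 scale were recovered. A change of that size could thus be missed, but the share for these genes alone was not computed.

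**Figure D3:**
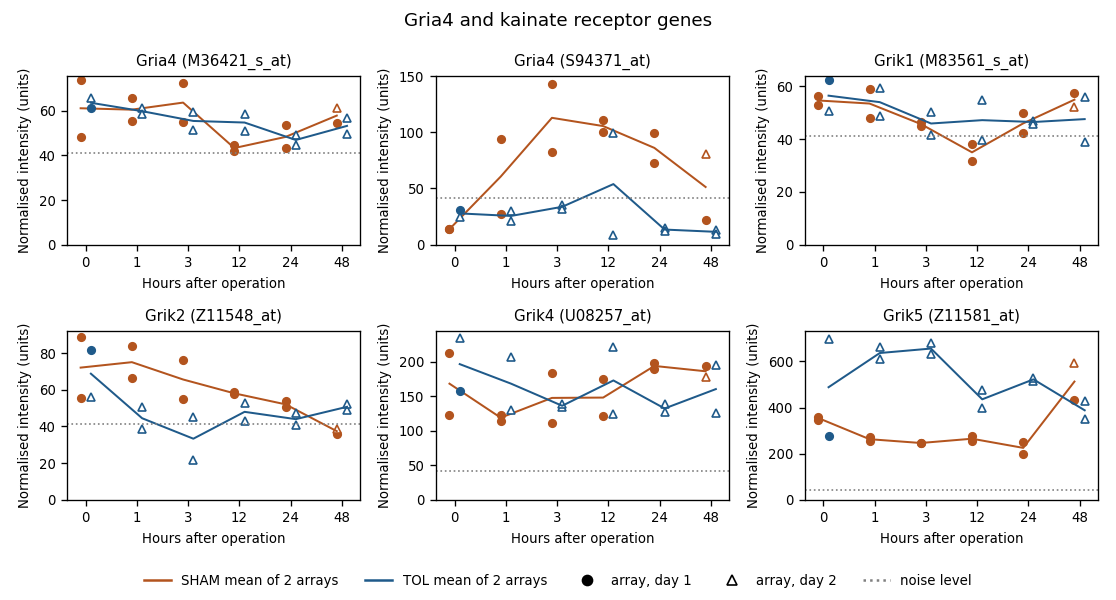
Normalised intensity (y axis, units) of the 6 tested probe sets of Gria4 and the kainate subunit genes against hours after the operation (x axis, evenly spaced times), with points for arrays, shape for hybridisation day, lines for means and a dotted line at the noise level. Grik5 arrays of day 2 (349 to 699 units) stand above most of those of day 1 (200 to 432 units). S94371_at of Gria4 has a higher mean in SHAM from 3 to 24 h, but the arm difference was not called at any single time. At these times the SHAM arrays are of day 1 and the TOL arrays of day 2.

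The arms were compared over all 6 times. Of 13 members, 3 were lower in TOL and 1 higher, against 4.58% and 4.72% of all probe sets. Besides Grik5 these were M36418_s_at of Gria1 (-0.42 ± 0.12, adjusted p = 0.0476), X54656_at of Gria3 (-0.36 ± 0.09, adjusted p = 0.0263) and S94371_at of Gria4 (-1.35 ± 0.36, adjusted p = 0.0331). With the day as a block none was called, and the values were -0.38, -0.19 and -2.00. The Gria1 call was lost in 22 of 31 alternative settings and that of Gria4 in 17 of 31. Of all probe sets 660 were called without the block and 1 with it, and only 2 groups hold arrays of both days. At the single times 0, 1, 3, 12, 24 and 48 h no member was called between the arms, against 0.0987%, 0.0564%, 0.0141%, 0.409%, 0.183% and 0.296% of all probe sets.

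**Figure D4:**
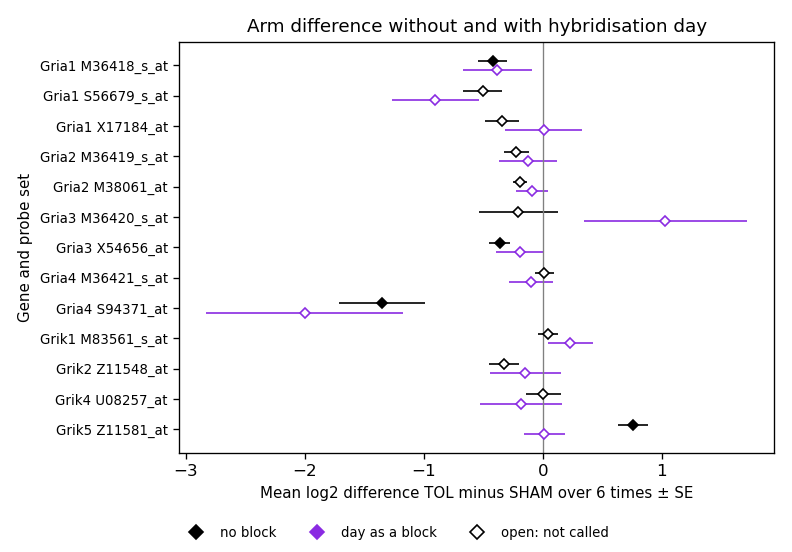
Mean log2 difference TOL minus SHAM over the 6 times (x axis, ± SE) of the 13 tested probe sets (y axis), without a block (black) and with the hybridisation day as a block (purple), with open symbols where not called. The Grik5 difference goes from 0.76 to 0.01 with the block.

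Likeness between members was described over the 24 arrays. The brightest sets of Gria1 and Gria2 correlated at r = 0.95 (Spearman 0.95), and those of Gria2 and Gria3 at r = 0.87 (Spearman 0.85). Grik2 correlated at r = 0.60 with both Gria1 (Spearman 0.67) and Gria2 (Spearman 0.71). Gria1 correlated with M36421_s_at of Gria4 at r = 0.48 and with Grik5 at r = -0.26. Of 3129 other genes above the noise level, those most like Gria1 were Nalcn, a sodium leak channel (r = 0.94), Atp2b1, a plasma membrane calcium pump (r = 0.93), and Nr3c2, the mineralocorticoid receptor (r = 0.92). Most like Gria2 were Plcb1, a phospholipase C (r = 0.95), Nr3c2 and Atp2b1 (r = 0.94 for both). Most like Gria3 were the nuclear receptor gene Nr4a3 (r = 0.91), the arginase gene Arg2 and the synaptic adhesion gene Nptn (r = 0.87 for both). The least like were Ccng1, a cyclin (r = -0.92 with Gria1), and the ribosomal protein genes Rpl19 (r = -0.94 with Gria2) and Rps10 (r = -0.87 with Gria3). These are descriptions over 24 arrays that share times and days.

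Genes that assemble, anchor, traffic, edit or modulate these receptors changed in both directions. Of 44 on the list, 22 were tested. In SHAM 4 fell and 1 rose at 24 h and again at 48 h, against 4.16% lower and 4.92% higher of all genes at 24 h and 6.22% and 6.05% at 48 h. In TOL 1 fell (Camk2a) and 2 rose (Nptx2 and Arc, the second named after its values were seen) at 24 h (background 2.84% and 4.14%) and 2 were called lower and 1 higher at 48 h (3.26% and 3.89%). The 2 were Camk2a and Akap5, and Akap5 was below the noise level in both groups, so no fold is given for it. The list's median log2 difference was -0.20 and -0.30 in SHAM and -0.14 and -0.17 in TOL at 24 and 48 h. Nptx2, a secreted pentraxin that clusters AMPA receptors, rose in both arms, from 356 ± 5.4 to 1103 ± 144 units at 48 h in SHAM (1.62 ± 0.27, adjusted p = 0.002) and from 358 ± 57.1 to 1051 ± 19.6 units in TOL (1.56 ± 0.27, adjusted p = 0.00337). Cnih2, a cornichon auxiliary subunit of AMPA receptors, fell in SHAM from 1722 ± 235 to 976 ± 207 units at 48 h (-0.83 ± 0.21, adjusted p = 0.02).

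The kinase subunit gene Camk2b, whose holoenzyme phosphorylates GluA1, fell in SHAM from 4544 ± 92.1 to 2278 ± 657 units at 48 h (-1.03 ± 0.17, adjusted p = 0.00177). Camk2a was at 112 ± 39.1 units at 0 h in SHAM and below the noise level on both arrays at 24 h, at least 2.72-fold lower (adjusted p = 0.000675). It fell from 114 ± 12.3 to 51.1 ± 1.63 units at 24 h in TOL (-1.16 ± 0.29, adjusted p = 0.0291). Dlgap1, a scaffold protein of the postsynaptic density, fell at 24 h in SHAM from 357 ± 61.6 to 179 ± 19.9 units (-0.99 ± 0.26, adjusted p = 0.032). Akap5, the kinase anchor that binds GluA1 through scaffolds, was below the noise level on both SHAM arrays at 48 h, at least 1.78-fold under its 0 h mean (adjusted p = 0.00221).

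Of the other glutamate receptor genes, 2 of 6 tested NMDA receptor subunit genes (Grin1 and Grin2a) fell in SHAM at 24 and at 48 h, against 4.16% and 6.22% of all genes. In TOL 0 of 6 were called, against 2.84% and 3.26%, and all 6 differences lay below 0, with medians of -0.61 and -0.44 (-1.31 and -0.59 in SHAM). Over both arms 3 and 2 were called lower, against 8.13% and 9.92% of all genes, and whether the arms differed was not tested over the list. None of 5 tested metabotropic receptor genes was called at these times in either arm, and over both arms 1 was called lower at 48 h (background 9.92%). Grin2a went from 299 ± 109 units at 0 h to below the noise level in SHAM at 48 h, at least 7.26-fold lower (adjusted p = 0.0102).

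Cell markers moved in the same hours. In whole hippocampus, fewer cells of a type and less RNA per cell cannot be told apart. Of 11 tested neuronal markers 2 fell in SHAM and 3 in TOL, at 24 and again at 48 h. All genes called lower made up 4.16% and 6.22% in SHAM and 2.84% and 3.26% in TOL. The 6 tested excitatory neuron markers include Camk2a, which is also on the partner list and fell in both arms at both times. Of these 6 markers 3 fell in SHAM at 24 h and 3 at 48 h, and 1 and 3 in TOL. Their summed level went from 10449 to 11028 units at 0 h to 6513 to 7279 units at 48 h in SHAM, and from 8744 to 11506 to 6318 to 7246 units in TOL. Of 9 inhibitory neuron markers none was called at these times, with summed levels of 3414 to 4004 units at 0 h and 2852 to 3421 at 48 h in SHAM. Of 8 tested microglia and macrophage markers 3 rose at 48 h in SHAM and 2 in TOL, against 6.05% and 3.89% of all genes. Their summed level went from between 475 and 658 to between 1103 and 1383 units in SHAM and from between 525 and 614 to between 1597 and 2030 units in TOL, with C1qc, Cd74, Csf1r and Itgam at or below the noise level on average. Of 8 astrocyte markers 1 rose at 48 h in each arm, 1 fell at 24 h in each arm and 1 fell at 48 h in TOL, and of 8 oligodendrocyte markers 1 fell at 24 and at 48 h in SHAM. The part of these markers in the fall of the AMPA subunit genes was not tested.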

How the data were processed

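The deposited table holds 1 linear, background-subtracted intensity value per probe set and array, made by the authors. Software, version and scaling: not given in the sources used here. On each array 21.9% to 24.5% of values were 0 or less, and array medians ranged from 51.6 to 85.6 units. No 2 arrays held the same values, and 0 value columns lacked a sample. Arrays of a group correlated at r = 0.921 to 0.954, and the number of arrays limits the precision. The hybridisation day came from the deposited experiment records, which hold other information than expression.

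Values were quantile normalised, floored at the 25th percentile (3.49 units) and taken to log2. The 59 controls were left out and 7092 of 8799 probe sets (4083 genes) tested. By the platform annotation 7018 probe sets matched 1 gene, 308 several and 1473 none, and symbols were updated by gene ID. Group means were fitted in limma 3.58.1 in R 4.3.3 (12 residual and 1.47 prior degrees of freedom). Tests are two-sided, with p-values adjusted by Benjamini-Hochberg over all tested probe sets. Where both arrays of 1 group lay below the noise level, the fold is a lower bound computed with that level. On simulated SHAM 48 h data over 7092 probe sets, 200 of them changed, 44% of falls of 1 and 67% of falls of 2 on the log2 scale were recovered. There were 7 false calls. Replicate numbers did not pair the arrays (correlation of deviations between groups -0.21 to 0.27, median -0.01 over 66 pairs). For each gene on a list the brightest tested probe set stood in. Members and lists were chosen with earlier results of these data known. The named partner genes are the 6 with the smallest adjusted p at 24 or 48 h, and the genes most like a member are the 3 with the highest Pearson r. Figures were drawn with Python 3.11.15 and matplotlib 3.10.9.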

Additional observations from a re-analysis of the deposited data

How the results depend on the processing

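None of the 31 called differences of single probe sets changed sign in the alternatives run, but of 985 recomputed values, the ratios included, 162 lost the call, and the Grik5 arm difference went from 0.76 to 0.01 with the day as a block. Counts of members called moved by over 1.5 times as follows. With each array divided by its median, 1 member differed between the time courses (0 in the report) and 3 were called at 12 h in SHAM (1). On the deposited scale 3 were called at 12 h in TOL (1), 0 at 3 h over both arms (1) and 1 in the mean arm difference (4). On that scale the 48 h difference of all probe sets had a median of 0.18 in SHAM and -0.28 in TOL. With the floor at the 40th percentile 2 were called at 12 h in each arm (1) and 7 in the mean arm difference. With no filter, with a filter on the mean, with the day as a block and with the replicate block, 0 were called at 3 h over both arms. The mean filter also gave 2 at 12 h in TOL. The replicate block moved no other count past that limit. With the day as a block 3 were called at 24 h and 3 at 48 h in TOL (5 and 7) and 0 in the mean arm difference. The shares of all probe sets called in either direction in TOL with this block were 4.6% at 24 h and 4.85% at 48 h. Within 1 day 0 were called at 12 h in SHAM, and 0 in the TOL time course and at 12, 24 and 48 h in TOL. Leaving out 1 array at a time gave 0 to 2 for the difference between the time courses, 0 to 1, 0 to 2, 4 to 8 and 3 to 7 in SHAM at 3, 12, 24 and 48 h, and 0 to 1, 0 to 2, 0 to 2, 1 to 6 and 2 to 7 in TOL at 1, 3, 12, 24 and 48 h. It gave 0 to 2 and 3 to 7 at 3 and 12 h over both arms, 1 to 6 for the mean arm difference, 0 to 4 for single-time arm differences and 0 to 3 for single interactions. The lowest counts at 48 h came without SHAM 0 h replicate 1 (3) in SHAM and without replicate 1 of 0 or 48 h (2) in TOL, and, for TOL at 24 h, without either replicate 1 of 0 h or that of 24 h (1). Leaving out an array leaves its group with 1 array, and the cause of the low counts was not tested.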
